A study of Mus musculus with 13 samples.

Results

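Collagen VI chain and receptor transcripts were measured in the interscapular brown adipose tissue (iBAT) of mice on a high-fat diet (HFD). The set holds 7 of the 42416 gene identifiers in the files, namely the 5 chain genes Col6a1, Col6a2, Col6a3, Col6a5 and Col6a6 and the 2 receptor genes Antxr1 and Antxr2. All were chosen as a gene family, by symbol. Col6a6 was selected on its rise in iFAXLKO, so its group difference is given here as a description with no test.

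Collagen VI is secreted as a heterotrimer of an α1, an α2 and a further chain, usually α3 and in some tissues α5 or α6, and assembles outside the cell into beaded microfilaments that link cells to the surrounding matrix. In adipose tissue it is known for its abundance around fat cells and for endotrophin, a signalling fragment cleaved from the end of the α3 chain. Antxr1 and Antxr2 encode anthrax toxin receptors, cell surface proteins that bind and take up collagen VI.

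The files held 8 libraries of iFAXLKO mice, homozygous for loxP-flanked Axl and heterozygous for a tamoxifen-inducible Cre, and 5 of WT littermates with the same floxed Axl and no Cre. Both groups received HFD at room temperature and tamoxifen every 3 weeks, and per the methods of the study gavage began at 6 to 8 weeks of age and the tissue-specific knockouts were female. The Cre is an Adipoq-CreERT2 transgene on a bacterial artificial chromosome, driven in adipocytes, so Axl of other cells of the depot was left in place by design. The labels number the libraries as replicates without saying that each came from its own mouse, and p-values measure the spread between these libraries.

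Total counts ran from 22.44 to 32.6 M per library (M as in Mb). The level of Axl, the targeted receptor kinase, was no lower with the label iFAXLKO than with WT, at 33.1 ± 6.16 counts per M counts (CPM; SD, n = 8) against 27.8 ± 3.82 CPM in WT (SD, n = 5), and each direction below is that of the labels. The brown adipocyte genes were present in every library, with summed levels of 15500 to 20400 CPM in iFAXLKO and 17300 to 26200 CPM in WT. Skeletal muscle markers, 8 genes of a neighbouring tissue, summed to between 2.47 and 4050 CPM in iFAXLKO and between 16.4 and 2730 CPM in WT, with iFAXLKO replicate 8 and WT replicate 5 the lowest of their groups. Over all genes, 17 of 13360 tested (0.127%) had an adjusted p under 0.05 by edgeR's quasi-likelihood test, 13 of them higher in iFAXLKO.

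The chain genes lie in 2 clusters and 1 single locus. Col6a1 (ENSMUSG00000001119, chr10:76708792-76726168, GRCm38, minus strand, as are all members) and Col6a2 (ENSMUSG00000020241, chr10:76595762-76623630) are neighbours 85.2 kb apart, and Col6a3 (ENSMUSG00000048126, chr1:90765923-90843971) stands alone. Col6a6 (ENSMUSG00000043719, chr9:105687809-105828160) and Col6a5 (ENSMUSG00000091345, chr9:105856078-105960643) are 27.9 kb apart, and Col6a4, a chain gene outside the set, begins 28.8 kb beyond Col6a5. Annotated genes that overlap a member held at most 2 counts in any library. No stretch of 50 bases of a Col6a1, Col6a2, Col6a3 or Antxr2 transcript recurred in a transcript of another gene, whereas 3.7% of those of Col6a6 did and 3.42% of those of Col6a5 (all of the latter in Col6a6), so a small part of the reads of these 2 chains could have been assigned to either.

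Transcripts of Col6a1, Col6a2 and Col6a3 varied together across the libraries. For Col6a6, a variation shared with them was not detectable at its low counts. The sequences just upstream of these chain genes are shown here. They are RefSeq promoter sequences (GRCm38.p6, minus strand, 5′ to 3′), limited to the bases before the first annotated base of the gene, at chr10:76726169-76726294, chr10:76623631-76623880, chr1:90843972-90844221 and chr9:105828161-105828335. Capitals mark matches, on either strand, to any of 5 short promoter motifs. The GC box, bound by Sp-family factors, was searched as GGGCGG. For the box bound by the factor NF-Y the letters searched were CCAAT. The TATA box, bound by the TATA-binding protein, was taken as TATAAA. An E-box, bound by helix-loop-helix factors, was any match to CANNTG, whose middle bases are free. The AP-1 site, bound by Fos and Jun proteins, was searched as TGANTCA, and none of these matches overlapped another.
Col6a1: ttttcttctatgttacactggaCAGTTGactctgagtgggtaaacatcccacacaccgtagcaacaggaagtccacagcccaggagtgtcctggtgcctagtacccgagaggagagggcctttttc
Col6a2: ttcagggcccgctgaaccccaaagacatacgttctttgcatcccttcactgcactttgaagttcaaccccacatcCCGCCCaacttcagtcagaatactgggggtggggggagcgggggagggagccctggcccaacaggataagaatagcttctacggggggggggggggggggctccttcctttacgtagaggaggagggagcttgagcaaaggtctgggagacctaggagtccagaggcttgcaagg
Col6a3: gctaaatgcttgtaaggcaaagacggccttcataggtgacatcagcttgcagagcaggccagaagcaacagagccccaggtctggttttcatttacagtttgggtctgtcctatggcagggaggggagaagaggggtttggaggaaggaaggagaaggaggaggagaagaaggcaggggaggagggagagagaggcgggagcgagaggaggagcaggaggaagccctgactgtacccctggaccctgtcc
Col6a6: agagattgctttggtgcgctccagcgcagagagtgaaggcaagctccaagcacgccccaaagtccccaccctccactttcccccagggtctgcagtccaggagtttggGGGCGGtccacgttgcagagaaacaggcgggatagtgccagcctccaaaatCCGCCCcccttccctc

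In the 250 bases before the RefSeq start, Col6a6 held 2 GC boxes, at 142 and 91 bases upstream, and Col6a2 held 1, while 32.7% of 32851 mouse promoters of this length hold at least 1. Col6a1 held an E-box (66.2% of promoters) and, 90 bases upstream and inside sequence annotated as exon, an AP-1 site (6.75% of promoters). Col6a3 held none of the 5 motifs. None of the 4 genes matched the TATA box (12.4% of promoters) or the CCAAT box (33.8%). The 3 chains that varied together thus had no motif of this list in common, and a match or its absence in these letters says nothing of a factor. Of the 7 members 6 had an entry in the promoter table, and Antxr1 had none.

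Per transcript length, Col6a1 was the most abundant member and Col6a5 the least. The level was 50.2 ± 16.2 TPM (transcripts per M transcripts, from union exon length; SD, n = 13) for Col6a1, 27.8 ± 9.93 TPM for Col6a2, 19.0 ± 6.95 TPM for Col6a3, 6.95 ± 1.36 TPM for Antxr2, 1.56 ± 0.529 TPM for Antxr1, 0.214 ± 0.104 TPM for Col6a6 and 0.0107 ± 0.0144 TPM for Col6a5. This order held in each of the 13 libraries, with union exon length and with that of the longest transcript. Across libraries, the ranges of neighbours overlapped from Col6a1 to Col6a2, from there to Col6a3 and from there to Antxr2, and did not overlap further down. Of the genes ranked by mean TPM, 87.1% lay below Col6a1, 12.2% below Antxr1 and 0.0899% below Col6a6, which places Col6a6 at the low edge of the genes tested.

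**Figure D1:**
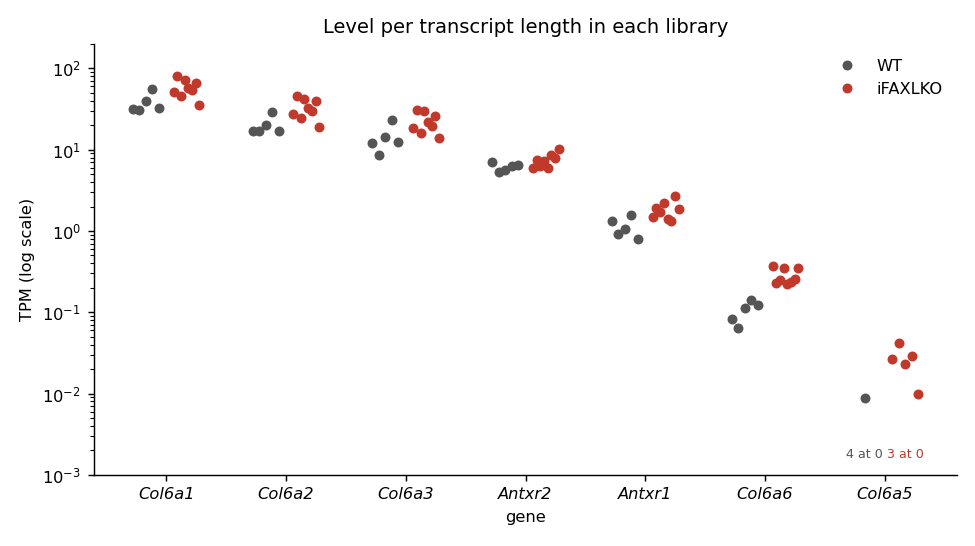
TPM of each member in each library, on a log axis, with 1 point per library (grey, WT, n = 5; red, iFAXLKO, n = 8). The levels step down from Col6a1 to Col6a5, Col6a6 lies below every other member that is at 0 in no library, and Col6a5 was at 0 in 7 of 13 libraries (4 WT and 3 iFAXLKO), marked as text.

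Of the summed chain TPM, Col6a1 made up 51.9% ± 1.2, Col6a2 28.5% ± 1.06, Col6a3 19.4% ± 1.51 and Col6a6 0.224% ± 0.114 (SD, n = 13). Lengths of the longest transcript gave 43.7% for Col6a1, 38% for Col6a2 and 18.1% for Col6a3, so the gap between Col6a1 and Col6a2 rested largely on which length was used. The ratio of Col6a3 to Col6a1 in TPM was 0.379 ± 0.0219 in iFAXLKO and 0.365 ± 0.0516 in WT, a difference smaller than the SD of either group. As an alternative to α3, Col6a6 amounted to 1.4% ± 0.598 of the Col6a3 TPM in iFAXLKO and 0.76% ± 0.135 in WT, a ratio that carries the selection of Col6a6. The make-up of the collagen VI transcripts was in this sense almost wholly that of α1, α2 and α3 in both groups.

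The genes of the 3 classical chains had higher mean levels in iFAXLKO, by 1.47- to 1.56-fold, but none passed the adjusted threshold. A change in the number of cells of a type and a change in RNA per cell cannot be told apart in bulk tissue, here or in any result that follows. Col6a1, which encodes the α1 chain, was at 61.1, 70.2, 74.3, 105 and 64 CPM in the 5 WT libraries, and at 67.3 CPM in the lowest, 111 CPM in the median and 157 CPM in the highest iFAXLKO library. The groups overlapped, since WT replicate 4 exceeded 3 of the iFAXLKO libraries and iFAXLKO replicate 8 lay among the WT libraries. The means were 110 ± 27.4 CPM (SD, n = 8) and 75 ± 17.7 CPM (SD, n = 5), with a log2 fold change of 0.56 (SE 0.18) and an edgeR adjusted p of 0.49. The exact permutation test of the difference in mean log2 CPM, 2-sided, gave p = 0.0256, and 0.0626 without WT replicate 1 and 0.0586 without WT replicate 5.

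Col6a2, which encodes the α2 chain, was at 61.3, 75.2, 72.7, 105 and 64.1 CPM in the WT libraries and at 68.3, 119 and 169 CPM in the lowest, median and highest iFAXLKO library. Here too 5 of 8 iFAXLKO libraries lay above the highest WT library. The means were 118 ± 32.5 and 75.7 ± 17.4 CPM, the log2 fold change 0.64 (SE 0.20), the edgeR adjusted p 0.462 and the exact permutation p 0.0202.

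Col6a3, which encodes the α3 chain and with it endotrophin, was at 63.1, 53.6, 73.7, 120 and 67.6 CPM in the WT libraries and at 71.8, 113 and 162 CPM in the lowest, median and highest iFAXLKO library. WT replicate 4 was again the highest of its group, and 4 of 8 iFAXLKO libraries lay above it. The means were 115 ± 31.2 and 75.5 ± 25.7 CPM, the log2 fold change 0.60 (SE 0.22), the edgeR adjusted p 0.535 and the exact permutation p 0.0272. That p was 0.0606 without WT replicate 1, 0.0747 without WT replicate 2 and 0.0545 without WT replicate 5.

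Col6a6, the α6 chain, was detected at low level in all libraries. Its counts were 10, 7, 15, 15 and 12 in the WT libraries, and 41, 25, 23, 44, 25, 26, 26 and 35 in the iFAXLKO libraries. As CPM these were 0.327, 0.304, 0.441, 0.573 and 0.506 in WT, and from 0.916 to 1.49 with a median of 0.993 in iFAXLKO. The ranges did not overlap, in a gene that was selected on its rise. Of the 13360 genes tested, 32 had ranges apart and higher in iFAXLKO, Col6a6 among them, and 26 had ranges apart and lower. The means were 1.13 ± 0.234 CPM (SD, n = 8) and 0.43 ± 0.115 CPM (SD, n = 5), and the fitted fold was 2.61, on sums of 245 counts in iFAXLKO (exact Poisson 95% interval 215 to 278) and 59 in WT (44.9 to 76.1), intervals that cover counting error only. Col6a6 entered the test because exactly 5 iFAXLKO libraries and no WT library exceeded 1 CPM by plain library totals, before TMM scaling, the lowest number that the filter admits.

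Col6a5, the α5 chain, was near or at 0. It had 3, 0, 4, 3, 0, 0, 3 and 1 counts in the iFAXLKO libraries and 0, 1, 0, 0 and 0 in the WT libraries. Only 1 library exceeded the 3 counts that an observed 0 allows, which here is 0.092 to 0.134 CPM. The sums were 14 counts in iFAXLKO (exact Poisson 95% interval 7.65 to 23.5) and 1 in WT (0.0253 to 5.57), intervals that cover counting error only. Col6a5 was under the filter, so a difference was not tested and no fold is given. Col6a4 had 8 counts in all 13 libraries together, 6 of them in WT replicate 1.

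**Figure D2:**
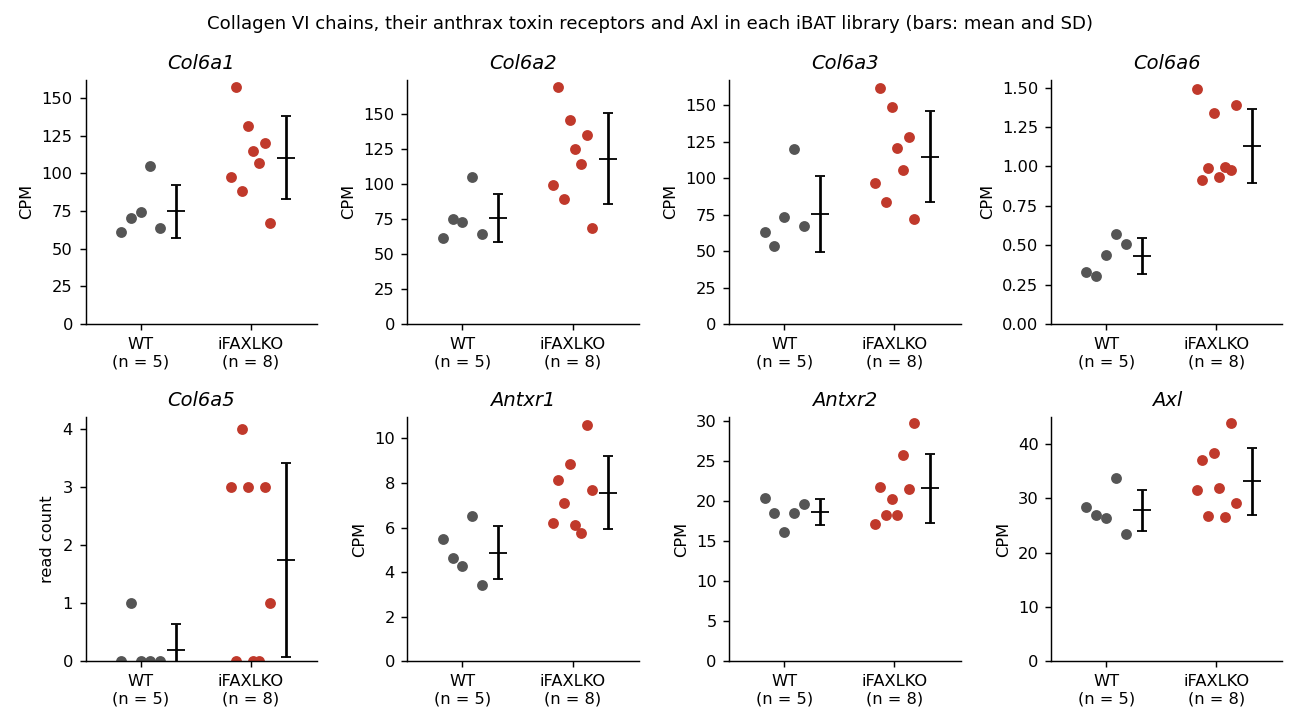
Level of each member and of Axl in each library, in CPM (Col6a5 as read counts), with 1 point per library and bars for the mean and SD (grey, WT, n = 5; red, iFAXLKO, n = 8). Among the members other than Col6a5, the groups overlap for all but Col6a6, which was selected on its rise. WT replicate 4 lies at 105, 105 and 120 CPM for Col6a1, Col6a2 and Col6a3.

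Of the receptors, Antxr1 had the larger group difference, though neither was called and the difference between them was not tested. Antxr1 (ENSMUSG00000033420, chr6:87133853-87335821), also known as a tumour endothelial marker, was at 5.47, 4.65, 4.29, 6.53 and 3.41 CPM in WT and at 5.77, 7.4 and 10.6 CPM in the lowest, median and highest iFAXLKO library. All 8 iFAXLKO libraries lay above the WT mean and 5 above the highest WT library. The means were 7.57 ± 1.64 and 4.87 ± 1.18 CPM, the fold 1.55, the log2 fold change 0.63 (SE 0.17), the edgeR adjusted p 0.381 and the exact permutation p 0.00544, which stayed at 0.0182 or lower with any 1 library left out.

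Antxr2 (ENSMUSG00000029338, chr5:97882783-98031043), the second anthrax toxin receptor, was at 20.4, 18.5, 16.1, 18.5 and 19.6 CPM in WT and at 17.1, 20.9 and 29.8 CPM in the lowest, median and highest iFAXLKO library. The highest value was that of iFAXLKO replicate 8, which was the lowest of its group for Col6a1, Col6a2 and Col6a3. The means were 21.6 ± 4.28 and 18.6 ± 1.6 CPM, with a log2 fold change of 0.21 (95% interval -0.06 to 0.49), an adjusted p of 0.74 in edgeR and 0.17 as the exact permutation p. The ratio of Antxr2 to Antxr1 counts was 2.95 ± 0.822 in iFAXLKO and 4 ± 1.06 in WT, and these ranges overlapped.

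Of the 5 members tested beside Col6a6, none was called, where 0.127% of all genes were. All 5 were higher in iFAXLKO, against 46.4% of all genes tested, and 4 of the 5 had an unadjusted edgeR p under 0.05 in that direction, against 3.84% of all genes. Col6a1, Col6a2 and Col6a3 varied together between libraries, with correlations given further on, so these counts are not of independent genes.

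The library numbers in the labels fall in a lower run with 4 iFAXLKO and 2 WT libraries and an upper run with 4 and 3, with a gap between them. What the numbers stand for is not stated. The difference in mean log2 CPM was 0.82 in the lower and 0.33 in the upper run for Col6a1, 0.84 and 0.44 for Col6a2, 1.02 and 0.31 for Col6a3, 0.57 and 0.67 for Antxr1, and -0.01 and 0.38 for Antxr2. For Col6a6 it was 1.66 and 0.97, as a description. The 3 classical chains thus differed more between groups in the lower run and Antxr2 more in the upper, but an edgeR test of the difference between runs gave adjusted p-values from 0.704 to 0.954 for these 5 members, and called 0 of 13360 genes (952 at an unadjusted p under 0.05).

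Fibroblast and progenitor markers were higher in iFAXLKO, as were the classical chains and Antxr1. Of the 9 markers all were higher in iFAXLKO, 6 at an unadjusted p under 0.05 and none called, with a median log2 fold change of 0.50 and summed levels of 166 to 307 CPM against 125 to 196 CPM in WT. Clec3b (fold 1.43), Cd34 (fold 1.51) and Pi16 (fold 1.64) had the smallest p among them. With the mean log2 CPM of these markers as a covariate, the log2 fold change was 0.19 for Col6a1, 0.21 for Col6a2, 0.18 for Col6a3 and 0.15 for Antxr1, 0.29 for Antxr2 and 1.49 for Col6a6. The part of these markers in the result was not tested. Macrophage markers were also higher in 5 of 5 genes, 4 at an unadjusted p under 0.05, and endothelial and pericyte markers in 5 of 6 and 6 of 6 with none at that limit. Over all genes tested, 46.4% were higher and 3.84% were both higher and at that limit. Schwann cell markers were higher in 5 of 5, 2 at that limit, and of 4 keratinocyte markers 1 passed the filter (Krt10, fold 0.951). Of the 8 brown adipocyte markers 0 were higher and 8 lower, with a median log2 fold change of -0.11, and 1, Elovl3, was at that limit and lower. Of the 8 muscle markers 0 were higher and 8 lower, with a median of -0.26 and none at that limit. With the muscle marker score as a covariate the fold changes of Col6a1, Col6a2, Col6a3 and Antxr1 were between 0.59 and 0.68 on the log2 scale, and without both muscle-poor libraries between 0.53 and 0.67.

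**Figure D3:**
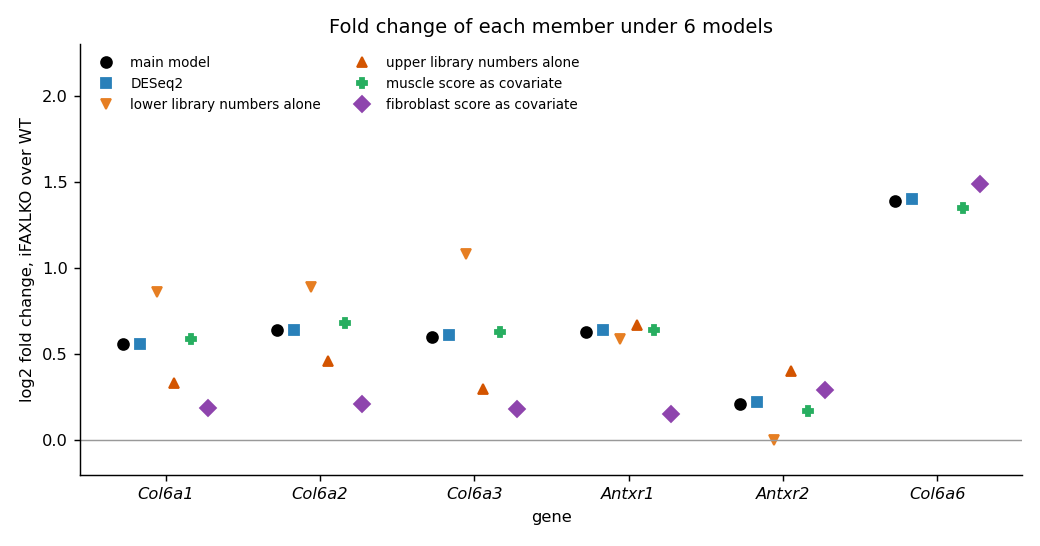
Log2 fold change (iFAXLKO over WT) of each member under 6 models, as points of different shape; Col6a6 is absent from the models on 1 run of library numbers, where it was under the filter. The points of Col6a1, Col6a2, Col6a3 and Antxr1 drop to between 0.15 and 0.21 with the fibroblast score as a covariate, whereas Col6a6 is at 1.49.

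Between libraries of the same group, the classical chains varied almost as 1 unit. With group means subtracted, log2 CPM of Col6a1 and Col6a2 had a Pearson r of 0.99 and a Spearman rho of 0.98 (n = 13), Col6a1 and Col6a3 an r of 0.94 and a rho of 0.93, and Col6a2 and Col6a3 an r of 0.92 and a rho of 0.87. Each r had a permutation p of 1e-05, the smallest that 100000 resamples can give, and an adjusted p of 9e-05 over 27 relations, and the permutation p of each rho was at most 0.0004. Without the 2 libraries farthest from the median r was 0.98, 0.92 and 0.88, and within the runs of library numbers it was between 0.89 and 1.0. In the lower run, Col6a1 with Col6a3 and Col6a2 with Col6a3 missed the adjusted limit (adjusted permutation p = 0.0784 for both). The order of the libraries by classical chain level was nearly the same for all 3 genes, from iFAXLKO replicate 2 at the top of its group to replicate 8 at the bottom. Among the 13359 other genes ranked by r, Col6a2 and Col6a3 were in places 1 and 2 for Col6a1, Col6a1 and Col6a3 in places 1 and 3 for Col6a2, and Col6a1 and Col6a2 in places 2 and 5 for Col6a3.

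Col6a6 had no detected variation in common with them. Its r with the other members lay between -0.13 and 0.14 (n = 13). The highest library for all 3 classical chains, iFAXLKO replicate 2, was the lowest of its group for Col6a6, at 0.916 CPM next to 0.935 CPM in replicate 5. Within the lower and upper runs of library numbers, r was -0.49 and 0.81 with Antxr2. With the 3 classical chains it was -0.32 to -0.14 in the lower run and -0.52 to -0.36 in the upper. Without the 2 libraries farthest from the median r was 0.39 with Col6a1, 0.28 with Col6a2 and -0.0 with Col6a3. None of these passed the adjusted limit. At 30.6 mean counts in iFAXLKO and 11.8 in WT, counting alone gives a coefficient of variation of 18.1% and 29.1%, next to an observed 20.8% and 26.7%. The variation of Col6a6 within groups was thus about that of counting error, and a shared variation with the other chains was not detectable at this depth.

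Antxr1 varied within groups with the fibroblast score and with Axl. Its r was 0.88 with the score (rho 0.84, permutation p = 8e-05 for r and 0.00066 for rho, adjusted p = 0.00054 for r) and 0.85 with Axl (rho 0.84, permutation p = 0.00025 and 0.00065, adjusted p = 0.00135 for r), and 0.41 to 0.46 with the 3 chains, none of which passed the adjusted limit. Without the 2 libraries farthest from the median these r were 0.78 with the score and 0.70 with Axl (adjusted permutation p = 0.0431 and 0.0695). Within the lower and upper runs of library numbers they were 0.79 and 0.90 with the score and 0.69 and 0.91 with Axl, and none passed the adjusted limit there. The difference between these correlations and those with the chains was not tested. With the same score, the r of Col6a1, Col6a2 and Col6a3 was 0.59, 0.64 and 0.54 (rho 0.63, 0.70 and 0.51), with adjusted permutation p-values of 0.0886, 0.0564 and 0.148 for r and 0.0701, 0.0395 and 0.192 for rho, so that none passed on r. Without 2 libraries these r were 0.55, 0.62 and 0.39, and in the lower and upper runs 0.91 and 0.71, 0.94 and 0.73, and 0.91 and 0.77. With Axl, the r of Col6a1, Col6a2 and Col6a3 was 0.68, 0.71 and 0.71 (rho 0.68, 0.71 and 0.60), with adjusted permutation p-values of 0.0353, 0.0285 and 0.0285 for r and 0.0463, 0.0381 and 0.0864 for rho. Without 2 libraries these r were 0.71, 0.75 and 0.60, and in the lower and upper runs 0.84 and 0.66, 0.85 and 0.67, and 0.95 and 0.72. Of these, only the r of Col6a2 without 2 libraries passed the adjusted limit (adjusted permutation p = 0.0431).

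Antxr2 had no such relation over all libraries, with an r of -0.34 to -0.24 with the 3 classical chains. The sign differed between the runs, where r was 0.74 to 0.89 in the 6 libraries of the lower run and -0.63 to -0.55 in the 7 of the upper run. Without the 2 libraries farthest from the median r was 0.05 with Col6a1, 0.13 with Col6a2 and -0.36 with Col6a3. None of these passed the adjusted limit, and the difference between the runs was not tested.

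**Figure D4:**
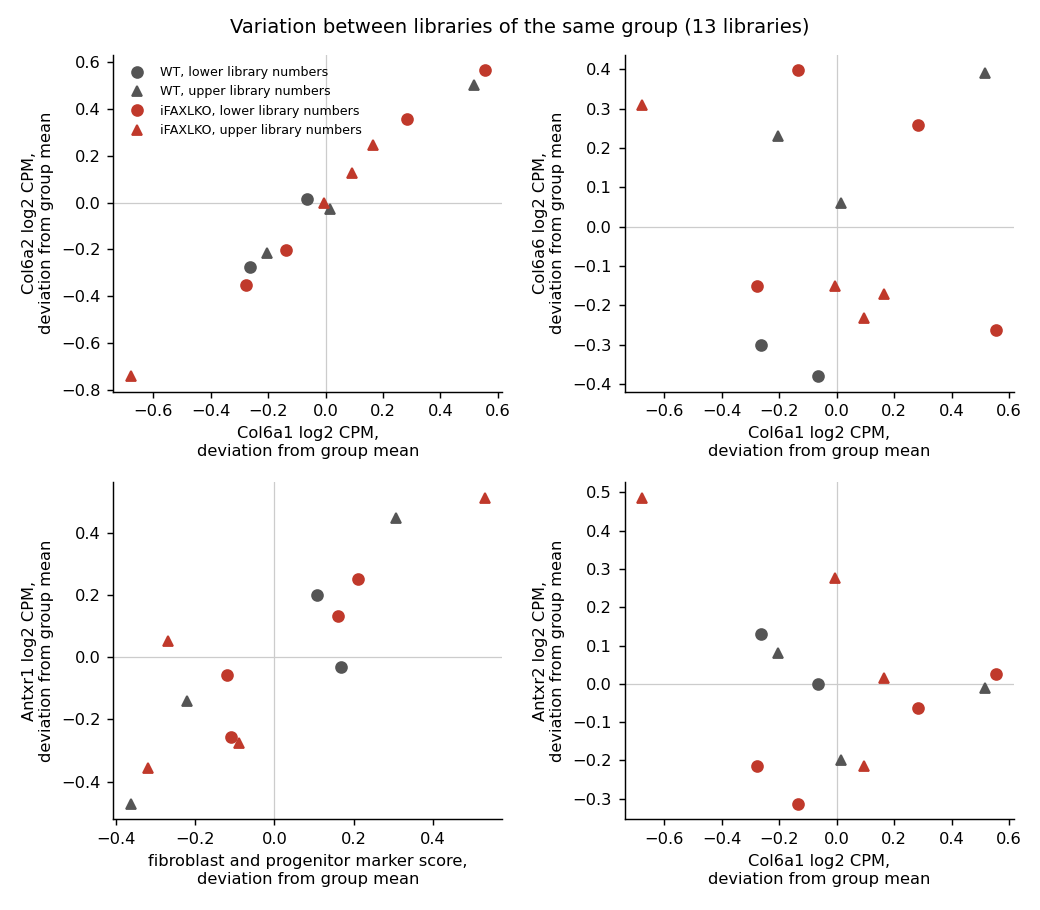
Deviation of each library from its group mean in log2 CPM, for Col6a2, Col6a6 and Antxr2 against Col6a1, and for Antxr1 against the fibroblast and progenitor marker score (grey, WT; red, iFAXLKO; circles, lower run of library numbers; triangles, upper run; 13 libraries). Col6a2 follows Col6a1 along a line (r = 0.99), Antxr1 follows the score (r = 0.88), and Col6a6 shows no trend with Col6a1 (r = -0.07).

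The genes most like each member within groups, by Pearson r over the 13 libraries and among 13360 genes, were mostly fibrillar collagen genes for the classical chains. They were Col3a1, Col5a2 and Col1a2 for Col6a1 (r = 0.93 each), Col1a2, Ssc5d and Col3a1 for Col6a2 (0.92, 0.91 and 0.91), and Col5a2, Col1a2 and Col3a1 for Col6a3 (0.94, 0.93 and 0.92). For Antxr1 they were Adcy5 (0.93) and Anpep (0.88), and for Antxr2 Ndc1 (0.95), Sulf2 (0.94) and Slc16a7 (0.94). For Col6a6 they were 4930525G20Rik (0.87), Pigo (0.86) and Fut10 (0.84), although its variation within groups was about that of counting error. All these genes were picked as the highest r over all genes, which is high in part by that choice, and none of these r was tested.

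Other genes of the collagen VI pathway gave no call. Of 6 further surface receptors 5 were tested, 3 higher and 2 lower, with a median log2 fold change of 0.07 against -0.01 over all genes. Itga3, an integrin α subunit, had the smallest p (13.3 ± 1.26 against 11 ± 0.782 CPM, fold 1.21, edgeR adjusted p 0.474), while Itgb1, the shared β1 subunit, was at 178 and 181 CPM and Cspg4, the NG2 proteoglycan, at 77.7 and 74.3 CPM in iFAXLKO and WT. Of all genes tested, 46.4% were higher, and 3.84% were higher at an unadjusted edgeR p under 0.05. Of 15 matrix partners of collagen VI, 13 were tested and 12 were higher, 7 at an unadjusted p under 0.05, with a median of 0.22. Among these, decorin (Dcn), a proteoglycan that binds collagen VI, was at 116 ± 13 CPM against 87 ± 8.12 CPM (fold 1.33, edgeR adjusted p 0.163), and Col5a1 and Col1a2, chains of fibrillar collagens, had folds of 1.56 and 1.58 (edgeR adjusted p 0.512 for both). Matn1, a cartilage matrilin, was at 0 in all libraries.

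Genes for folding and secretion of collagens stayed near the median of all genes. Of 16 listed 15 were tested, 9 higher and 6 lower, with a median log2 fold change of 0.04. P3h1, a prolyl 3-hydroxylase, had a fold of 1.19 (edgeR adjusted p 0.49), P4hb, a subunit of prolyl 4-hydroxylase, a fold of 1.12 (adjusted p 0.707), and P4ha1, its catalytic subunit, was at 77.8 ± 44.8 CPM against 113 ± 35.1 CPM (adjusted p 0.753). Of 5 proteases that cut collagen VI or its partners 4 were tested and all 4 were higher, with a median of 0.35. Bmp1, the procollagen C-proteinase, was at 23 ± 2.98 CPM against 17.1 ± 2.62 CPM (fold 1.35, edgeR adjusted p 0.31), Mmp2, a gelatinase, had a fold of 1.33 (adjusted p 0.462) and Mmp14, a membrane-bound matrix metalloproteinase, a fold of 1.22 (adjusted p 0.728).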

How the data were processed

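Bulk RNA of iBAT was sequenced in 13 libraries. The authors deposited 1 file per library with unnormalised read counts for Ensembl genes. The submitters' processing notes name bcl2fastq 2.20, fastp 0.20.0, STAR 2.7.4a, DESeq2 and GRCm38.p6, whereas the methods of the study name Trim Galore and hisat2. Likewise the labels give polyadenylated RNA and the methods depletion of ribosomal RNA, which can change the level of transcripts without a poly(A) tail. The counter and whether it used strand are not given in the sources used here, so reads of a gene and of an antisense partner cannot be told apart.

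Positions, exon lengths and transcripts came from GENCODE M21 (GRCm38). Genes with over 1 CPM of the plain library total in at least 5 libraries were kept (13360), scaled with TMM factors and tested with edgeR 4.0.16 (quasi-likelihood F test, robust, 2-sided, Benjamini-Hochberg over all genes tested, called at an adjusted p under 0.05; R 4.3.3). The SE of a log2 fold change is its size over the square root of F. Levels per library are CPM with TMM factors, log2 CPM used a prior count of 2, and TPM were computed from counts and union exon lengths without TMM factors. Single members were compared by an exact permutation test, with 0.000777 as the smallest possible p, and relations within groups by 100000 permutations. No 2 libraries of a group agreed within sampling noise (lowest chi-square 18.4 per degree of freedom over genes). The fit was tested on simulated data first.

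The genes named were the 7 members, Axl, up to 3 genes with the smallest p in each pathway list and the 3 genes most like each member within groups, with markers beside these; some genes that met this rule are not reported here. The members, lists and tests were chosen with earlier results of these data known. Alternatives were DESeq2 1.42.0, limma-voom (limma 3.58.1), other normalization factors, library sizes and filters, non-robust dispersions, a replicate block, covariates, single runs of library numbers, a prior count of 0.5, transcript lengths and each library left out. Leaving out both libraries of lowest muscle marker level was chosen after seeing the data.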

Additional observations from a re-analysis of the deposited data

Results flagged for a closer look

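Of 22 sets of group values tested for a library far from the others, 1 stood apart, where chance flags about 1 in 20. The ratio of Col6a2 to Col6a1 in TPM was 0.563 in WT replicate 2, against 0.515 to 0.528 in the other 4 WT libraries. It lay within the iFAXLKO range of 0.53 to 0.592. The same library had the lowest ratio of Col6a3 to Col6a1, 0.279.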

How the results depend on the processing

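The number of genes called, 17, was 67 with DESeq2 (38 higher, all 17 among them), 9 with the fibroblast score as a covariate, 2 in the lower and 2 in the upper run of library numbers alone, and 11 without both libraries of lowest muscle marker level. With the replicate block (replicates 1 to 5, 10 libraries) it was 7, and 12 in the same libraries without it. Deviations of same-numbered libraries correlated at 0.37, 0.32, 0.11, 0.16 and -0.52, so not every pair was over 0.1 and the number was not taken to pair the samples, although 3 of 5 WT libraries correlated best with their own number. With 1 library left out the count was 14 to 19, and it lay within 1.5 times of 17 under the 9 other alternatives. No member tested beside Col6a6 was called under any of the 28 alternatives, with adjusted p-values between 0.065 and 1.0 for Antxr1 (the lowest with DESeq2) and 0.107 or higher for the others. Log2 fold changes with 1 library left out were 0.47 to 0.71 for Col6a1, 0.55 to 0.79 for Col6a2, 0.50 to 0.83 for Col6a3, 0.53 to 0.76 for Antxr1 and 0.13 to 0.26 for Antxr2, which the block moved to 0.04. Col6a6 was over the filter in 19 of the 28, at 1.26 to 1.51, and under it in the rest. The number of those 5 members with an exact permutation p under 0.05 was 4, and 2 to 4 with 1 library left out (2 without WT replicate 1 or 5). Of 27 relations 8 passed the adjusted limit, 5 without the 2 libraries farthest from the median, 1 in the lower and 3 in the upper run. The ratio of Col6a3 to Col6a1 was 0.374, and 0.414 with the longest transcript, whose length sets that shift. With 1 library left out it was 0.37 to 0.381. Depth limits Col6a5 and Col6a6.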
